A study of Mus musculus with 18 samples.

Results

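The 9 genes described here, Tmem119, Fcrls, Selplg, Slc2a5, Slco2b1, Kcnk13, Olfml3, Golm1 and Crybb1, encode surface, secreted and other proteins used as markers of homeostatic microglia. They were taken by symbol from a list of such markers. All 9 were found among the 13043 genes of the deposited count table, and all 9 were among the 10597 genes with enough counts to be tested. Their RNA was measured in 18 libraries of macrophages sorted from the brains of bone marrow chimaeras. The recipients were wild type C57BL6/C mice that had been lethally irradiated, and the donor marrow carried the alleles Ms4a3-Cre, R26-TdTomato and Cx3cr1-gfp. The brains were collected 32 weeks after the transplantation, and no more than 100000 cells went into a library. The groups were monocyte-derived leptomeningeal macrophages (positive for GFP and TdTomato, 4 libraries), HSC-derived leptomeningeal macrophages (positive for GFP alone, 2 libraries), monocyte-derived microglia (positive for both, 4 libraries), HSC-derived microglia (positive for GFP alone, 4 libraries) and host microglia (no colour, 4 libraries). HSC stands for haematopoietic stem cell. The 4 donor-derived groups carried all the reporter alleles, the Cx3cr1-gfp allele included, and the host cells carried none. Host cells had been irradiated in place, whereas donor cells entered after irradiation. In every donor against host comparison, the origin of the cells, the reporter alleles and the irradiation therefore cannot be told apart. Ms4a3-Cre is active in granulocyte-monocyte progenitors, so that TdTomato marks their descendants. A donor cell in which recombination failed would have been sorted as HSC-derived, and the share of such cells was not measured.

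Microglia are the resident macrophages of the brain parenchyma. They descend from yolk sac progenitors, renew themselves locally and need brain-derived signals, TGF-beta among them, to keep their homeostatic genes on. After irradiation, marrow-derived cells can settle in the emptied niche and take on part of this programme. Macrophages of the leptomeninges, the thin membranes over the brain, belong to the border-associated macrophages, which carry markers such as Lyve1 and Mrc1 and are known for low levels of most microglial markers.

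Of the 9 genes, 7 had a promoter window in the RefSeq tables (GRCm38.p6), with 9 windows among them because Slco2b1 had 3 annotated starts; Tmem119 and Selplg had none. Each window covers 250 bases before to 50 bases after a transcript start. The windows were searched on both strands for GAGGAA, letters at the core of many sites of PU.1, the transcription factor that every macrophage needs. Matches stood in windows of Fcrls, Slco2b1 and Kcnk13, which makes 3 of the 7 genes and 5 of the 9 windows, beside 28.3% of all 32851 windows in the table. Slco2b1 gave 3 of the 5 windows with a match, and the 28.3% is a share of windows and not of genes. Olfml3, Slc2a5, Crybb1 and Golm1 had no match. The genes with a match were also the 3 with the highest share of the host level in monocyte-derived microglia, which was seen once the values were known and was not tested. The 250 bases before the start are shown for these 3 genes and for Slc2a5, the gene with the lowest level relative to host microglia, each 5′ to 3′ on the strand of its gene with any GAGGAA in capitals. They lie at chr3:87263525-87263774 on the minus strand (Fcrls), chr7:99695810-99696059 on the minus strand (the Slco2b1 start with a match before it), chr12:99964249-99964498 on the plus strand (Kcnk13) and chr4:150119094-150119343 on the plus strand (Slc2a5).
Fcrls: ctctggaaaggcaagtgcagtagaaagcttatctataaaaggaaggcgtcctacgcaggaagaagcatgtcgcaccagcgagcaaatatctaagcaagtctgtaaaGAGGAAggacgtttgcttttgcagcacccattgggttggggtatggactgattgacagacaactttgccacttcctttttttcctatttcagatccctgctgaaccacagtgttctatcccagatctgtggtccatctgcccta
Slco2b1: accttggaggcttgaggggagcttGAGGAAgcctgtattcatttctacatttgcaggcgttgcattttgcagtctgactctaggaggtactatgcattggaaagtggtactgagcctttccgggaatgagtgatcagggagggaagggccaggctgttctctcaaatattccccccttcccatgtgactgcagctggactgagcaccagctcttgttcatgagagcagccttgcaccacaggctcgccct
Kcnk13: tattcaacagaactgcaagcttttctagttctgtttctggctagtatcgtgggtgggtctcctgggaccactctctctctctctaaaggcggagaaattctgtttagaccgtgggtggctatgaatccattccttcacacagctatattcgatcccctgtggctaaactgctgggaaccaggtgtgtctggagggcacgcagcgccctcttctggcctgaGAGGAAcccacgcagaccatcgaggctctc
Slc2a5: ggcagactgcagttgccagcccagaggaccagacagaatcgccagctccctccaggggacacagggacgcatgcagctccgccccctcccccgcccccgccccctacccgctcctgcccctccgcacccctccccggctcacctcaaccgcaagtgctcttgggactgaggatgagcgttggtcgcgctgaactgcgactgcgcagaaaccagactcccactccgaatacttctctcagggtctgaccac
The match began 144 bases before the start in Fcrls, 226 bases before it in this window of Slco2b1 and 30 bases before it in Kcnk13. In the other Slco2b1 windows it began at bases 7 and 8 of the transcript. The letters GGAANNGAA (PU.1 with IRF8), TAAAAATA (MEF2) and GTCTAGAC (SMAD), searched in the same way, were in 0 of the 9 windows, beside 8.24%, 2.72% and 0.213% of all windows. A match is a run of letters and not a measured binding site, and the absence of one says only that these letters were not in the window.

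Total counts of unique molecular identifiers (UMIs) ran from 154727 to 2440234 per library. Levels are given as CPM, counts brought to a common library size with TMM scaling, and 3 counts corresponded to between 1.05 and 23.1 CPM. The 3 shallow libraries were replicates 3 and 4 of the HSC-derived microglia, with 264795 and 317872 counts, and replicate 2 of the HSC-derived leptomeningeal macrophages, with 154727. Replicates 3 and 4 of the HSC-derived microglia also stood apart in Apoe, which took 18.5% and 16.5% of their counts, beside 11.4% and 9.17% in replicates 1 and 2. Ribosomal protein genes took 12.8% and 12.2%, beside 7.83% and 8.01%. Summed fibroblast and mural markers were at 625 and 524 CPM, beside 87.8 and 74.2 CPM, and oligodendrocyte markers at 277 and 329 CPM, beside 93.5 and 114 CPM. Summed T and NK cell markers were lower, at 5.12 and 78.3 CPM beside 128 and 261 CPM. The part of these differences in the results was not tested. Defining markers were checked against the labels. Lyve1, a hyaluronan receptor of border macrophages, averaged 253 and 358 CPM in monocyte-derived and HSC-derived leptomeningeal macrophages, 5.07 and 6.42 CPM in monocyte-derived and HSC-derived microglia, and 0 CPM in host microglia. Mrc1, the mannose receptor, was lower in microglia but not absent from donor-derived ones, with means of 1191 and 1791 CPM in monocyte-derived and HSC-derived leptomeningeal macrophages, 597 and 606 CPM in monocyte-derived and HSC-derived microglia, and 26.6 CPM in host microglia. Pf4, Cd163 and F13a1, further genes of marrow-derived brain macrophages, also had higher means in both leptomeningeal groups than in any microglia group. Ms4a7, another such gene, went the other way within the donor-derived cells. It averaged 480 and 591 CPM in monocyte-derived and HSC-derived leptomeningeal macrophages, and 780 and 885 CPM in monocyte-derived and HSC-derived microglia. Choroid plexus markers, 8 genes in all, summed to between 2080 and 3530 CPM in the host libraries and to at most 483 CPM in any donor-derived library; their part in the results was not tested. In bulk libraries such as these, fewer cells of a type and less RNA per cell cannot be told apart.

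Host microglia had the highest mean level of 8 of the 9 genes, the donor-derived microglia came next, and the leptomeningeal macrophages of both origins were the lowest for all 9. Fcrls was the exception, with its highest means in donor-derived microglia. Together the 9 genes made up 0.202 to 0.267% of all counts in monocyte-derived leptomeningeal macrophages, 0.143 to 0.225% in HSC-derived leptomeningeal macrophages, 0.659 to 0.705% in monocyte-derived microglia, 0.398 to 0.637% in HSC-derived microglia and 1.48 to 1.53% in host microglia. The shallow replicates 3 and 4 of the HSC-derived microglia had the lowest shares of their group, 0.398 and 0.412%. With TMM scaling the 9 genes summed to 6000 to 6150 CPM in monocyte-derived and 5130 to 6070 CPM in HSC-derived microglia. A gene is called higher or lower where the two-sided quasi-likelihood (QL) test of edgeR gave an adjusted p under 0.05, adjusted by Benjamini-Hochberg over all 10597 tested genes. In monocyte-derived against host microglia, 6 of the 9 genes were called lower and 0 higher, beside 15.1% of all tested genes called lower. In HSC-derived against host microglia, 7 were called lower and 0 higher, beside 13.1% of all tested genes called lower. The labels do not say that replicates came from separate mice, so each p-value measures the spread between these libraries, which may be technical.

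**Figure D1:**
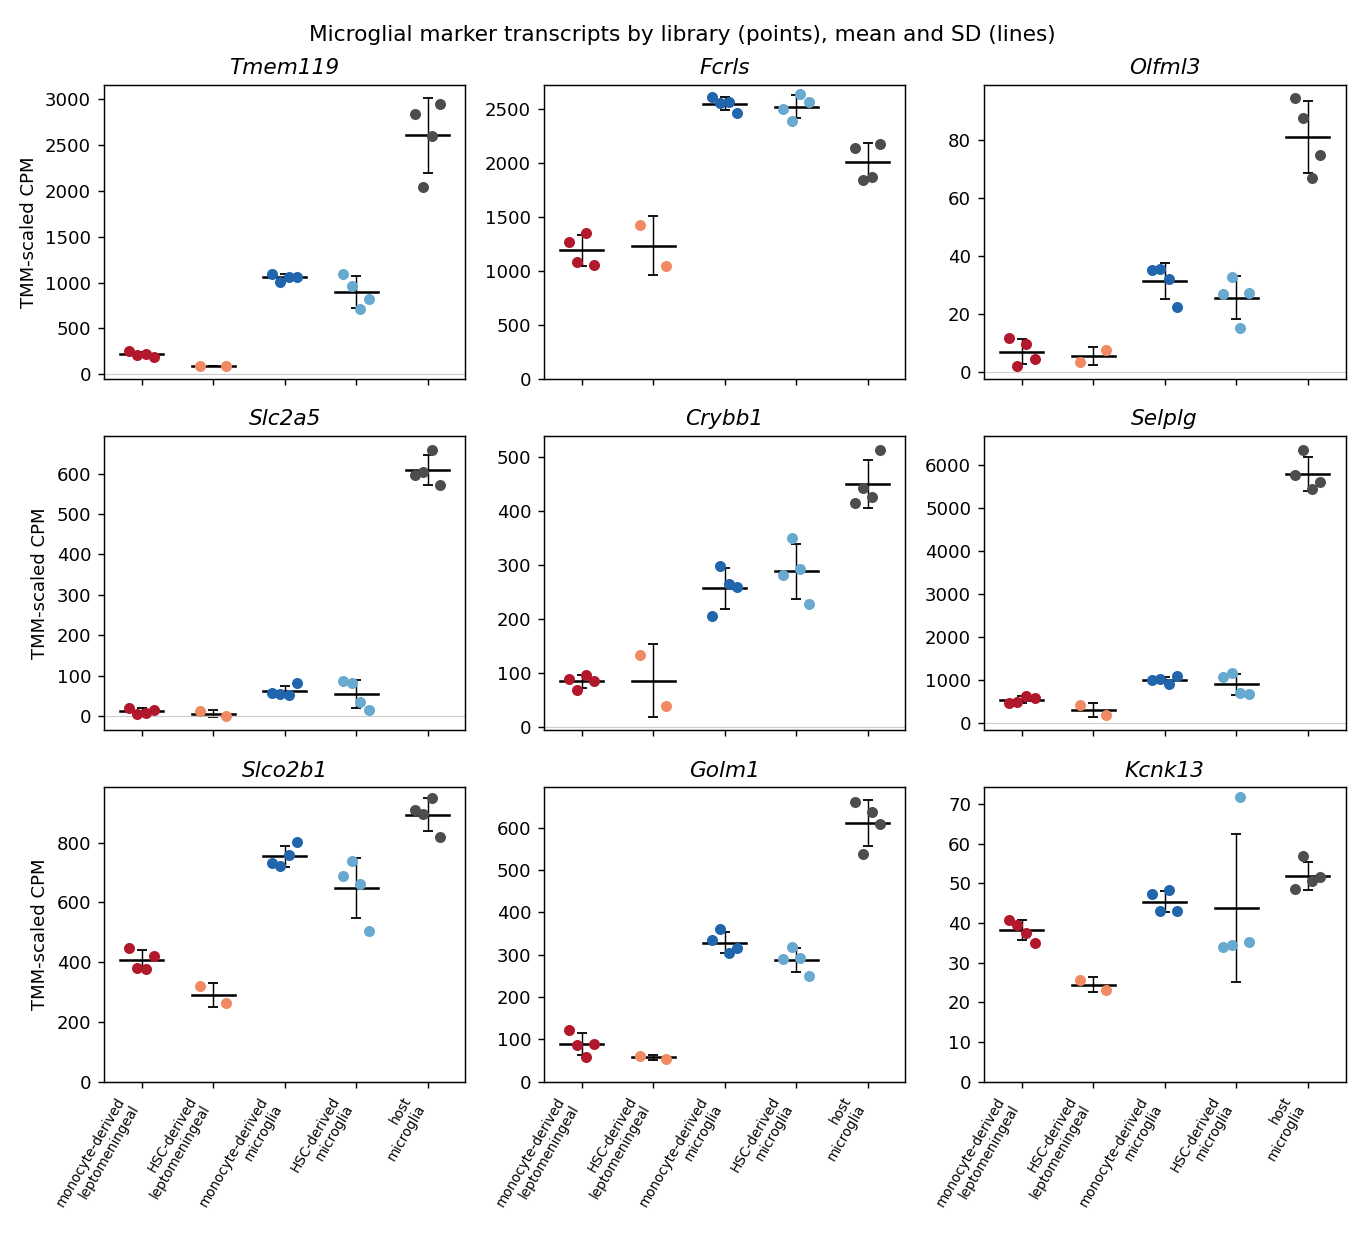
Level of each gene in every library (points; TMM-scaled CPM on a linear axis that differs between panels), with the group mean and SD as lines, for the 5 groups left to right. The host microglia mean lies highest in every panel but that of Fcrls, and in the Kcnk13 panel replicate 3 of the HSC-derived microglia (71.7 CPM) lies above all host libraries. In the Fcrls panel the donor-derived microglia lie between 2397 and 2644 CPM and host microglia between 1849 and 2184 CPM.

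Tmem119 encodes a single-pass membrane protein that is widely used to tell microglia from other brain macrophages, and lies at chr5:113793729-113800516 on the minus strand (GRCm38, as are all gene positions). Its level was 256, 205, 218 and 184 CPM in monocyte-derived leptomeningeal macrophages and 91.0 and 92.4 CPM in HSC-derived leptomeningeal macrophages. It was 1096, 1008, 1064 and 1062 CPM in monocyte-derived microglia, 1098, 963, 707 and 818 CPM in HSC-derived microglia, and 2845, 2040.0, 2598 and 2945 CPM in host microglia. The libraries fell into separate ranges for leptomeningeal cells, donor-derived microglia and host microglia, while the ranges of both donor-derived microglia groups overlapped. Tmem119 fell by 1.30 ± 0.16 (log2, SE) in monocyte-derived against host microglia (edgeR QL adjusted p = 8.39e-08), to 40.6% of the host mean. In HSC-derived against host microglia it fell by 1.53 ± 0.17 (log2, SE; edgeR QL adjusted p = 6.31e-09). In leptomeningeal macrophages against microglia it fell by 2.29 ± 0.17 in the monocyte-derived cells and by 3.30 ± 0.27 in the HSC-derived cells (log2, SE; edgeR QL adjusted p = 1.22e-12 and 7.89e-11).

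Selplg encodes PSGL-1, the selectin ligand with which leukocytes roll on endothelium, and lies at chr5:113818536-113832644 on the minus strand, next to Tmem119 on the same chromosome. Its level was 460.2, 486, 633 and 583 CPM in monocyte-derived leptomeningeal macrophages and 424 and 185 CPM in HSC-derived leptomeningeal macrophages. It was 1007, 1011, 906 and 1091 CPM in monocyte-derived microglia, 1059.9, 1152, 687 and 681 CPM in HSC-derived microglia, and 5769, 6363, 5449.9 and 5601 CPM in host microglia. The host libraries stood far above all others, and the step between donor-derived microglia and leptomeningeal macrophages was the smaller one. Selplg fell by 2.53 ± 0.20 (log2, SE) in monocyte-derived against host microglia, to 17.3% of the host mean (edgeR QL adjusted p = 2.63e-12), and by 2.68 ± 0.21 (log2, SE) in HSC-derived against host microglia (edgeR QL adjusted p = 1.33e-12). It also fell in leptomeningeal macrophages against microglia, by 0.89 ± 0.20 among monocyte-derived cells and by 1.47 ± 0.27 among HSC-derived cells (log2, SE; edgeR QL adjusted p = 0.00045 and 0.000237). Over 25 alternative fits the HSC-derived fold change ran from -2.37 to -1.07. The lowest came without replicate 1 of the HSC-derived leptomeningeal macrophages, which left replicate 2, a shallow library with 24 Selplg counts. Other leukocytes also carry Selplg. Summed markers of T and NK cells (19 genes) reached 731 to 1430 CPM in monocyte-derived leptomeningeal macrophages, 347 to 776 CPM in HSC-derived leptomeningeal macrophages, 181 to 242 CPM in monocyte-derived microglia, 5.12 to 261 CPM in HSC-derived microglia and 43.7 to 83 CPM in host microglia. Summed monocyte markers (14 genes) reached 1390 to 1760 CPM in monocyte-derived leptomeningeal macrophages, 501 to 1320 CPM in HSC-derived leptomeningeal macrophages, 128 to 210 CPM in monocyte-derived microglia, 164 to 267 CPM in HSC-derived microglia and 27.2 to 30.9 CPM in host microglia. Summed neutrophil markers (10 genes) reached 1300 to 3040 CPM in monocyte-derived leptomeningeal macrophages, 100 to 282 CPM in HSC-derived leptomeningeal macrophages, 12.7 to 55.1 CPM in monocyte-derived microglia, 0 to 20.5 CPM in HSC-derived microglia and 0 to 1.34 CPM in host microglia, where S100a8 and S100a9 were at 0. All 3 sums were highest in the leptomeningeal groups, where Selplg was lowest, and their part in the result was not tested.

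Fcrls encodes a scavenger receptor of the Fc receptor-like family in the mouse and lies at chr3:87250758-87263738 on the minus strand. Its level was 1276, 1087, 1356 and 1062 CPM in monocyte-derived leptomeningeal macrophages and 1431 and 1048 CPM in HSC-derived leptomeningeal macrophages. It was 2612, 2559.9, 2571 and 2468 CPM in monocyte-derived microglia, 2502, 2397, 2644 and 2567 CPM in HSC-derived microglia, and 2144, 1849, 1875 and 2184 CPM in host microglia. All 8 donor-derived microglia libraries stood above all 4 host libraries, yet the difference did not pass the test, and the leptomeningeal libraries stood below all the others. The log2 fold change was 0.34 ± 0.16 in monocyte-derived against host microglia and 0.33 ± 0.16 in HSC-derived against host microglia (SE; edgeR QL adjusted p = 0.0972 and 0.117). DESeq2 gave adjusted p = 0.00244 and 0.00206 for these comparisons and called Fcrls higher in both, and a fit of only the groups compared gave adjusted p = 7.37e-05 in monocyte-derived microglia. Without the 3 shallow libraries the same comparison gave 0.36 with an adjusted p of 0.00678. Scaling to total counts gave a log2 fold change of -0.03 for the HSC-derived cells. In leptomeningeal macrophages against microglia, Fcrls fell by 1.10 ± 0.16 in monocyte-derived cells and by 1.02 ± 0.20 in HSC-derived cells (log2, SE; edgeR QL adjusted p = 1.22e-06 and 0.000766).

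Slc2a5 encodes the fructose transporter GLUT5, which microglia carry among brain cells, and lies at chr4:150119283-150144169 on the plus strand. Its level was 21.1, 4.39, 7.65 and 14.1 CPM in monocyte-derived leptomeningeal macrophages, and 12.02 and 0 CPM in HSC-derived leptomeningeal macrophages, where the 0 comes from the shallow replicate 2 and 3 counts would have been 23.1 CPM. It was 56.5, 55.5, 51.1 and 81.4 CPM in monocyte-derived microglia, 86.4, 82.5, 35.9 and 15.7 CPM in HSC-derived microglia, and 597, 603, 659 and 571 CPM in host microglia. All 4 host libraries stood far above all donor-derived libraries, and the HSC-derived microglia were the most scattered, with both shallow libraries lowest and the lower of them within the range of the monocyte-derived leptomeningeal macrophages. Slc2a5 fell by 3.32 ± 0.28 (log2, SE) in monocyte-derived against host microglia, to 10.1% of the host mean (edgeR QL adjusted p = 2.71e-08). It fell by 3.22 ± 0.31 (log2, SE) in HSC-derived against host microglia, to 9.07% (edgeR QL adjusted p = 2.29e-07). In monocyte-derived cells it fell by a further 2.30 ± 0.36 (log2, SE) in leptomeningeal macrophages against microglia (edgeR QL adjusted p = 6.43e-05). In HSC-derived cells the fold change between the same compartments was -2.74 ± 0.75 (log2, SE; edgeR QL adjusted p = 0.0274). That call rested on few counts: it was lost without replicate 1 or 2 of the HSC-derived microglia (adjusted p = 0.0636 and 0.0603), without replicate 1 or 2 of the HSC-derived leptomeningeal macrophages (0.181 and 0.0829), with scaling to total counts (0.0594) and with only the groups compared in the fit (0.128). The fold change in these fits lay between -2.41 and -2.84, except without replicate 1 of the HSC-derived leptomeningeal macrophages, where the library that remained held 0 counts and the fitted value of -9.32 is no bound.

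Slco2b1 encodes an organic anion transporter, OATP2B1, and lies at chr7:99657804-99711340 on the minus strand. Its level was 448, 380.0, 376 and 421 CPM in monocyte-derived leptomeningeal macrophages and 319 and 262 CPM in HSC-derived leptomeningeal macrophages. It was 732, 723, 757 and 803 CPM in monocyte-derived microglia, 690.0, 738, 661 and 505 CPM in HSC-derived microglia, and 908, 897, 950.0 and 818 CPM in host microglia. Each host library stood above each donor-derived microglia library, by a small step, and the leptomeningeal libraries were below all microglia. The log2 fold change in monocyte-derived against host microglia was -0.24 ± 0.14 (SE), not called (edgeR QL adjusted p = 0.21), though DESeq2 gave adjusted p = 0.0256 and a fit of only the groups compared gave 0.0216. In HSC-derived against host microglia it was -0.45 ± 0.15 (SE) and called lower (edgeR QL adjusted p = 0.0185). That call was lost without replicate 4 of the HSC-derived microglia (adjusted p = 0.0952), without replicate 3 of the host microglia (0.0605), without the 3 shallow libraries (0.0519) and with only the groups compared in the fit (0.141). In leptomeningeal macrophages against microglia, Slco2b1 fell by 0.89 ± 0.15 in monocyte-derived cells and by 1.14 ± 0.21 in HSC-derived cells (log2, SE; edgeR QL adjusted p = 9.61e-06 and 0.000208). Endothelial cells also carry this transporter in some vessels. The summed endothelial markers (8 genes) ran from 21.7 to 31.8 CPM in monocyte-derived leptomeningeal macrophages, from 0 to 17.2 CPM in HSC-derived ones, from 14 to 19.2 CPM in monocyte-derived microglia, from 3.91 to 41 CPM in HSC-derived microglia and from 29.3 to 39.1 CPM in host microglia. Overlapping genes on the other strand, Gm15635 and Gm34280, averaged at most 3.36 CPM in any group.

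Kcnk13 encodes THIK-1, a potassium channel known for holding the resting potential of microglia, and lies at chr12:99964499-100062682 on the plus strand. Its level was 40.8, 39.5, 37.6 and 35.0 CPM in monocyte-derived leptomeningeal macrophages and 25.8 and 23.1 CPM in HSC-derived leptomeningeal macrophages. It was 47.3, 43.0, 48.3 and 43.1 CPM in monocyte-derived microglia, 34.0, 34.4, 71.7 and 35.2 CPM in HSC-derived microglia, and 48.7, 56.8, 50.6 and 51.6 CPM in host microglia. The groups lay close together, and replicate 3 of the HSC-derived microglia, a shallow library, was the highest of all 18. The other HSC-derived microglia libraries lay below or within the range of the monocyte-derived leptomeningeal macrophages. Kcnk13 was not called in monocyte-derived against host microglia (log2 fold change -0.19 ± 0.15, SE; edgeR QL adjusted p = 0.361) nor in HSC-derived against host microglia (-0.41 ± 0.20, SE; edgeR QL adjusted p = 0.112). Without that library, HSC-derived against host microglia gave -0.60 and an adjusted p of 0.0161. Between leptomeningeal macrophages and microglia the log2 fold change was -0.26 ± 0.16 in monocyte-derived cells and -0.63 ± 0.35 in HSC-derived cells, neither called (SE; edgeR QL adjusted p = 0.228 and 0.34). Scaling to total counts gave -0.56 with adjusted p = 0.00812 for the monocyte-derived cells. Against host microglia, Kcnk13 was called lower in leptomeningeal macrophages of both origins, by -0.45 ± 0.15 in monocyte-derived cells and -1.04 ± 0.32 in HSC-derived cells (log2 fold change, SE; edgeR QL adjusted p = 0.017 and 0.0101). These calls were lost without replicate 4 of the monocyte-derived leptomeningeal macrophages (adjusted p = 0.0619) or replicate 2 of the host microglia (0.0627), and without replicate 1 of the HSC-derived leptomeningeal macrophages (0.209).

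Olfml3 encodes a secreted glycoprotein with an olfactomedin domain and lies at chr3:103722222-103738001 on the minus strand. Its level was 11.9, 2.20, 9.56 and 4.71 CPM in monocyte-derived leptomeningeal macrophages and 3.44 and 7.70 CPM in HSC-derived leptomeningeal macrophages. It was 35.2, 35.6, 32.2 and 22.3 CPM in monocyte-derived microglia, 26.9, 33.0, 15.4 and 27.4 CPM in HSC-derived microglia, and 94.5, 87.8, 67.1 and 75.01 CPM in host microglia. The 3 kinds of cells again had separate ranges, at levels low enough that the HSC-derived leptomeningeal value rests on 3 counts over both libraries. Olfml3 fell by 1.35 ± 0.19 (log2, SE) in monocyte-derived against host microglia, to 38.6% of the host mean (edgeR QL adjusted p = 4.76e-07), and by 1.53 ± 0.25 (log2, SE) in HSC-derived against host microglia (edgeR QL adjusted p = 8.32e-06). In monocyte-derived cells it fell by 2.05 ± 0.28 (log2, SE) in leptomeningeal macrophages against microglia (edgeR QL adjusted p = 3.2e-07). For HSC-derived cells, microglia with 53 counts had 6.68 times the level of leptomeningeal macrophages with 3 counts (95% exact interval of the count ratio 2.16 to 33.4, counting error only). The difference was called (edgeR QL adjusted p = 0.0109), and not without replicate 1 of the HSC-derived leptomeningeal macrophages (adjusted p = 0.405). Fibroblasts and mural cells also make Olfml3. Their summed markers (5 genes) ran from 2080 to 3270 CPM in monocyte-derived leptomeningeal macrophages, from 3240 to 9250 CPM in HSC-derived leptomeningeal macrophages, from 25.2 to 42.3 CPM in monocyte-derived microglia, from 74.2 to 625 CPM in HSC-derived microglia and from 17.9 to 60 CPM in host microglia. Most of each leptomeningeal sum was Ptgds, at means of 2642 of 2720 CPM in monocyte-derived and 6137 of 6240 CPM in HSC-derived cells. In the same groups Dcn averaged 17.5 and 20.6 CPM, Col1a2 11.7 and 24.4 CPM, and Igfbp2 46.1 and 61.3 CPM. The sums were highest in the leptomeningeal groups, where Olfml3 was lowest, and their part in the result was not tested.

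Golm1 encodes a type II membrane protein of the Golgi that can be cut and released, and lies at chr13:59634626-59675811 on the minus strand. Its level was 122, 86.8, 58.0 and 88.8 CPM in monocyte-derived leptomeningeal macrophages and 61.8 and 53.9 CPM in HSC-derived leptomeningeal macrophages. It was 335, 360.0, 303 and 315 CPM in monocyte-derived microglia, 289, 319, 292 and 250.5 CPM in HSC-derived microglia, and 660.0, 537, 637 and 608 CPM in host microglia. Leptomeningeal cells, donor-derived microglia and host microglia formed separate ranges. Golm1 fell by 0.89 ± 0.15 in monocyte-derived and by 1.08 ± 0.16 in HSC-derived microglia against host microglia (log2, SE; edgeR QL adjusted p = 1.6e-05 and 2.54e-06). Leptomeningeal macrophages had less of it than microglia, and it fell by 1.88 ± 0.16 in monocyte-derived cells and by 2.28 ± 0.28 in HSC-derived cells (log2, SE; edgeR QL adjusted p = 4.5e-11 and 3.61e-07). Naa35 overlaps Golm1 on the other strand and averaged 33.7 CPM in monocyte-derived leptomeningeal macrophages, 57.8 CPM in HSC-derived ones, 37.2 CPM in monocyte-derived microglia, 52.6 CPM in HSC-derived microglia and 73.0 CPM in host microglia. Whether the counting used strand is not given in the sources used here, so that reads of the overlapping genes cannot be told apart.

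Crybb1 encodes a beta-crystallin, a structural protein of the lens whose transcript microglia also carry, and lies at chr5:112255815-112269585 on the plus strand. Its level was 88.5, 69.2, 96.3 and 84.8 CPM in monocyte-derived leptomeningeal macrophages and 134 and 38.5 CPM in HSC-derived leptomeningeal macrophages. It was 206, 298, 266 and 259 CPM in monocyte-derived microglia, 282, 350.4, 292 and 227 CPM in HSC-derived microglia, and 415, 443, 426 and 513 CPM in host microglia. The host libraries were above all others, and the leptomeningeal libraries were below all microglia. Crybb1 fell by 0.81 ± 0.16 in monocyte-derived and by 0.62 ± 0.17 in HSC-derived microglia against host microglia (log2, SE; edgeR QL adjusted p = 0.000167 and 0.00493). In leptomeningeal macrophages against microglia it fell by 1.59 ± 0.17 in monocyte-derived cells and by 1.46 ± 0.26 in HSC-derived cells (log2, SE; edgeR QL adjusted p = 5.79e-09 and 0.000193). Over 25 alternative fits the HSC-derived fold change ran from -3.00 to -1.1. The lowest came without replicate 1 of the HSC-derived leptomeningeal macrophages. In that library Crybb1 was over 3 times as high as in replicate 2, a shallow library with 5 Crybb1 counts.

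Set side by side, the genes differed in how far donor-derived microglia approached the host level. The means in monocyte-derived microglia ran from 10.1% of the host mean for Slc2a5 and 17.3% for Selplg, through 38.6% for Olfml3, 40.6% for Tmem119, 53.8% for Golm1 and 57.2% for Crybb1, to 84.4% for Slco2b1, 87.5% for Kcnk13 and 127% for Fcrls, a range of 12.6-fold. In HSC-derived microglia they ran from 9.07% for Slc2a5 to 126% for Fcrls, with a median of 47.1%. The median log2 fold change of the 9 genes was -0.89 in monocyte-derived and -1.08 in HSC-derived against host microglia, beside 0.01 and 0.0019 over all tested genes. Libraries did not overlap for 9 of the 9 genes in monocyte-derived against host microglia, beside 38.4% of all tested genes, and for 8 of the 9, all but Kcnk13, in HSC-derived against host microglia, beside 27.1%. The comparisons share the host libraries. Without the 3 shallow libraries, 7 genes were called lower in HSC-derived against host microglia, with Kcnk13 in place of Slco2b1, and 7 were called in monocyte-derived against host microglia, where Fcrls was then called higher (log2 fold change 0.36, edgeR QL adjusted p = 0.00678).

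**Figure D2:**
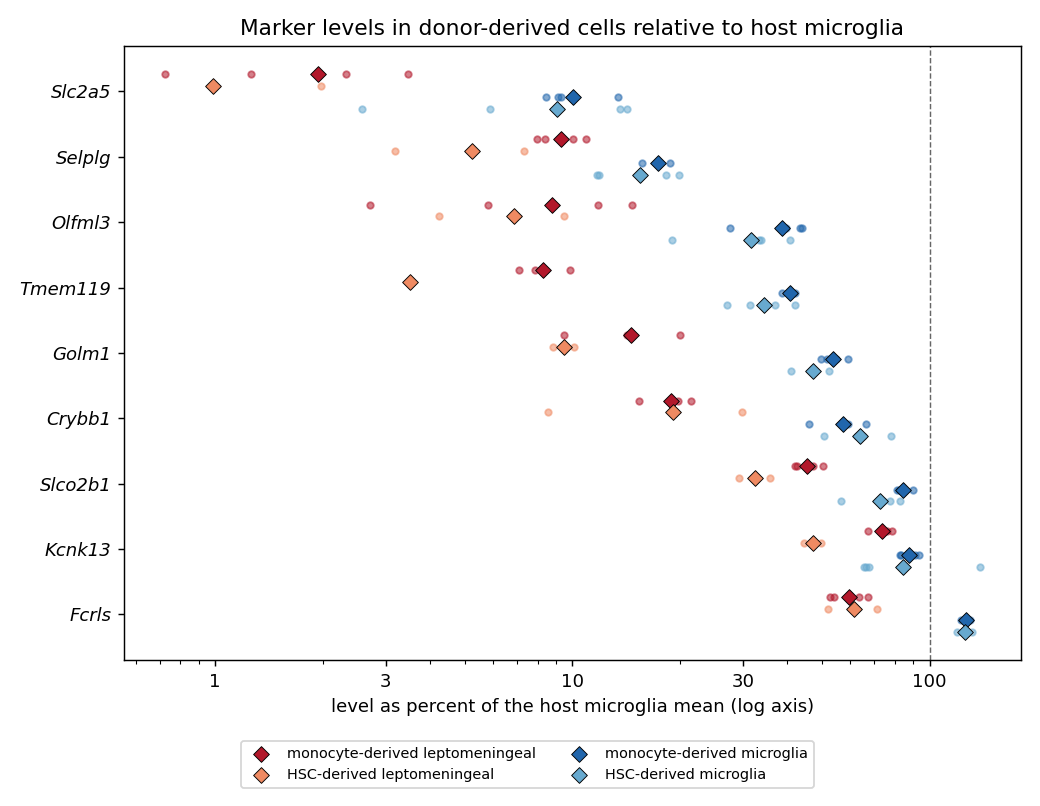
Level in each donor-derived group as percent of the host microglia mean (log axis; dashed line at 100), with library values as small points and group means as diamonds; the 1 library at 0, of HSC-derived leptomeningeal macrophages for Slc2a5, cannot be drawn on this axis. Slc2a5 reached 10.1% in monocyte-derived and 9.07% in HSC-derived microglia, whereas Fcrls reached 127% and 126%.

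**Figure D3:**
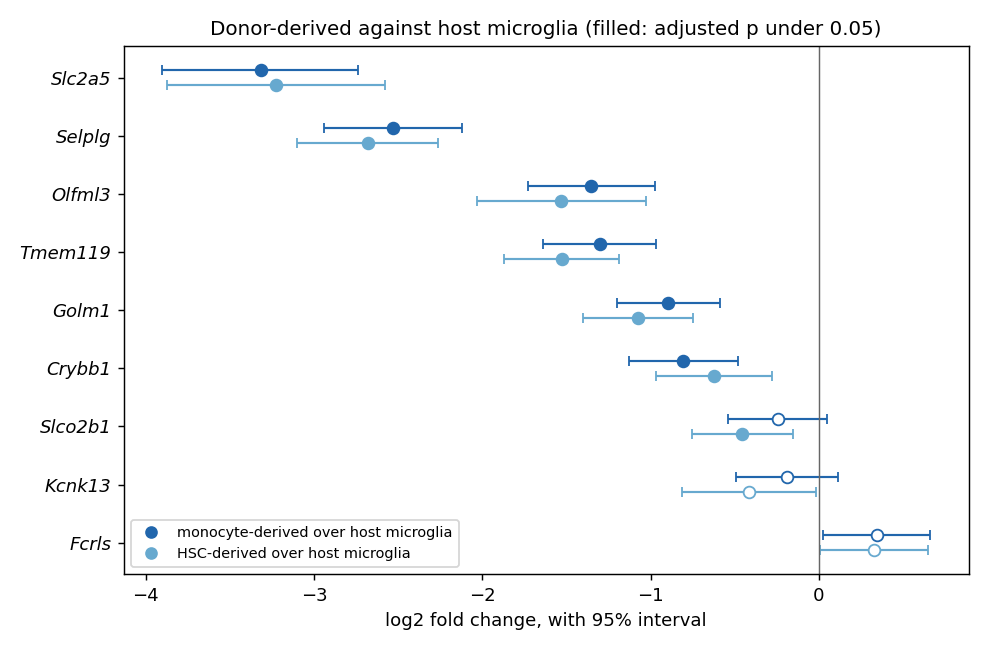
Log2 fold change of donor-derived over host microglia with its 95% interval (horizontal axis) for each gene, in monocyte-derived (dark) and HSC-derived (light) cells; filled points passed an edgeR QL adjusted p of 0.05. The estimates run from -3.32 and -3.22 for Slc2a5 to 0.34 and 0.33 for Fcrls, and both comparisons share the host libraries.

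In monocyte-derived against HSC-derived microglia, 0 of the 9 genes were called by edgeR QL, beside 1.89% of all tested genes in either direction; 0 had an unadjusted p under 0.05, and DESeq2 called 0. The log2 fold changes ran from -0.18 for Crybb1 to 0.23 for Tmem119, with adjusted p between 0.529 and 0.987, and the libraries overlapped for all 9. For Tmem119 the 95% interval of the log2 fold change was -0.11 to 0.56, and for Slc2a5, the least precise of the 9, it was -0.80 to 0.60, so that differences of these sizes remain possible. Scaling to total counts moved the median of all genes in this comparison to 0.27, and turned the values of Slc2a5 and Crybb1 to 0.15 and 0.10, still uncalled.

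In leptomeningeal macrophages against microglia, 8 of the 9 genes were called lower in the monocyte-derived cells, beside 16.3% of all tested genes called lower, with a median log2 fold change of -1.59 beside -0.04 over all tested genes. In the HSC-derived cells 8 were called lower as well, beside 3.97% of all tested genes, with a median of -1.47 beside -0.06. In both origins the gene not called was Kcnk13. The leptomeningeal mean as a share of the microglial mean of the same origin ran from 19.3% (Slc2a5) to 84.1% (Kcnk13) in monocyte-derived cells and from 10.2% (Tmem119) to 55.8% (Kcnk13) in HSC-derived cells. The HSC-derived comparison rests on 2 leptomeningeal libraries: with only the groups compared in the fit it called 2 of the 9 genes, Tmem119 and Golm1, and with 1 library left out it called between 6 and 8. Leptomeningeal cells were washed from the brain surface and microglia were freed by a further digestion, so that compartment and preparation cannot be told apart.

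**Figure D4:**
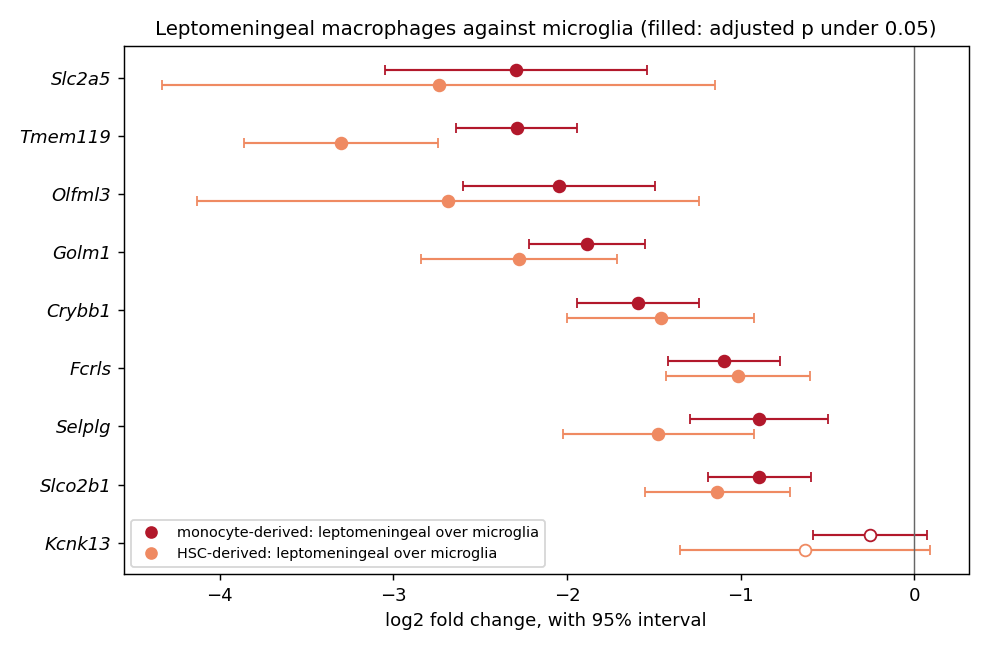
Log2 fold change of leptomeningeal macrophages over microglia with its 95% interval (horizontal axis) for each gene, in monocyte-derived (dark) and HSC-derived (light) cells; filled points passed an edgeR QL adjusted p of 0.05. All 18 estimates lie below 0, and only the 2 of Kcnk13, -0.26 and -0.63, did not pass.

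Between the leptomeningeal macrophages of both origins, 1 of the 9 genes was called in monocyte-derived against HSC-derived cells, beside 0.302% of all tested genes in either direction. This was Tmem119, at 216 ± 30.3 CPM (SD, n = 4) in monocyte-derived and 91.7 ± 0.982 CPM (SD, n = 2) in HSC-derived cells. The HSC-derived values rest on 53 and 12 counts in replicates 1 and 2, so that their small SD says little about precision. The Tmem119 log2 fold change was 1.24 ± 0.26 (SE; edgeR QL adjusted p = 0.0248). The call was lost without replicate 1 or 2 of the HSC-derived cells (adjusted p = 0.109 and 0.137) and with only the groups compared in the fit (0.0658), while the fold change stayed between 1.19 and 1.32 in these 3 cases. The difference between origins in the step between leptomeningeal macrophages and microglia was tested as an interaction, and 0 of the 9 genes were called by edgeR QL, beside 0.0566% of all tested genes. Tmem119 was the 1 gene with an unadjusted p under 0.05 in that test (log2 difference 1.01 ± 0.31, SE; edgeR QL adjusted p = 0.354), and DESeq2 called 0. For Selplg the log2 fold change between monocyte-derived and HSC-derived leptomeningeal macrophages was 0.73 ± 0.26 (SE; edgeR QL adjusted p = 0.29). Over 25 alternative fits it ran from 0.34 to 1.64. The highest came without replicate 1 of the HSC-derived cells, which left replicate 2, a shallow library with 24 Selplg counts.

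Against host microglia, all 9 genes were called lower in monocyte-derived leptomeningeal macrophages, beside 22.5% of all tested genes called lower, and all 9 in HSC-derived leptomeningeal macrophages, beside 15.3%. The median log2 fold changes were -2.78 and -3.35. In monocyte-derived leptomeningeal macrophages Slc2a5 fell by 5.61 ± 0.34 (log2, SE; edgeR QL adjusted p = 9.03e-11), to 1.94% of the host mean. Tmem119 fell by 3.59 ± 0.18 in monocyte-derived leptomeningeal macrophages and fell by 4.83 ± 0.29 in HSC-derived leptomeningeal macrophages (log2, SE; edgeR QL adjusted p = 4.06e-18 and 9.06e-16). Fcrls kept the highest share among the HSC-derived cells, at 61.6% of the host mean (log2 fold change -0.69 ± 0.20, SE; edgeR QL adjusted p = 0.00778), a call that was lost without replicate 2 of those cells (adjusted p = 0.157). The count was 8 in either comparison when a library was left out without which Kcnk13 or Fcrls missed the threshold, and 9 otherwise.

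Ordered by mean level, the groups ran host microglia, donor-derived microglia and leptomeningeal macrophages for 8 genes. Both donor-derived microglia groups were neighbours in this order for all 9 genes and were not called different for any. Host microglia and the next group were called different for Tmem119, Selplg, Slc2a5, Olfml3, Golm1 and Crybb1, and not for Slco2b1 and Kcnk13. For Fcrls the order was monocyte-derived microglia, HSC-derived microglia and host microglia, with no call between these neighbours, and host microglia were called different from the HSC-derived leptomeningeal macrophages that came next. The step between the lower donor-derived microglia group and the higher leptomeningeal group was called for the 7 genes other than Fcrls, where host microglia lay between, and Kcnk13. Most of these neighbours were monocyte-derived leptomeningeal macrophages against HSC-derived microglia, a comparison in which 8 of the 9 genes were called lower, beside 7.62% of all tested genes. For Crybb1 they were monocyte-derived microglia against HSC-derived leptomeningeal macrophages, in which 8 of the 9 genes were called higher, all but Kcnk13 (edgeR QL adjusted p = 0.0562), beside 8.89% of all tested genes. That count was 6 without replicate 1 and 7 without replicate 2 of the HSC-derived leptomeningeal macrophages, and 9 without replicate 3 of the HSC-derived microglia. The lowest neighbours, leptomeningeal macrophages of both origins, were called different for Tmem119 alone. Within groups, replicate 1 of the monocyte-derived leptomeningeal macrophages was the highest of its group for 6 of the 9 genes. Replicate 2 of the HSC-derived leptomeningeal macrophages was the lower for 7 of the 9, and replicate 4 of the HSC-derived microglia was the lowest for 5. Both of these are shallow libraries.

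**Figure D5:**
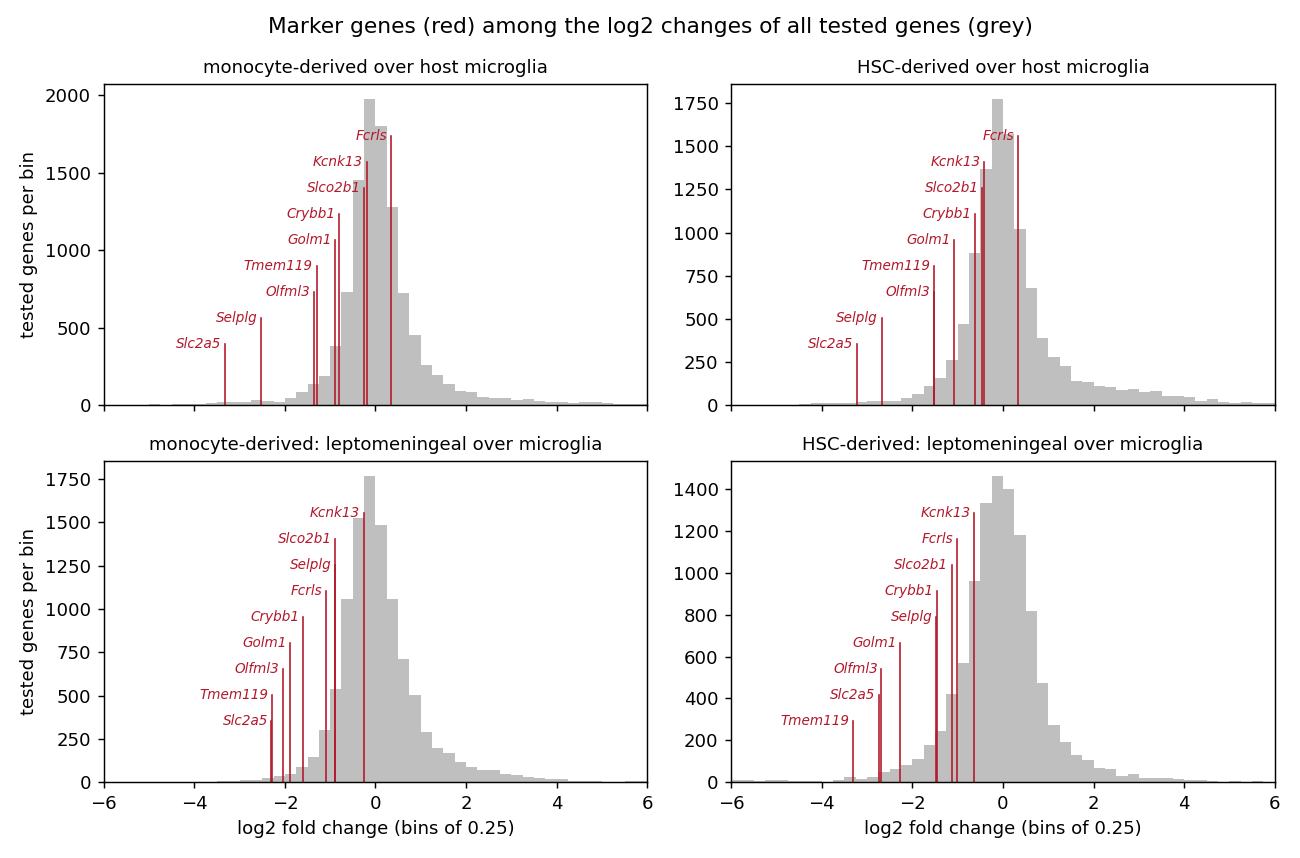
Distribution of the log2 fold changes of all 10597 tested genes (grey bars; genes per bin of 0.25; axis shown between -6 and 6) in 4 comparisons, with each of the 9 genes as a red line whose height has no meaning. The 9 genes have medians of -0.89, -1.08, -1.59 and -1.47 in the upper left, upper right, lower left and lower right panels, beside 0.01, 0.0019, -0.04 and -0.06 for all tested genes.

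Other genes were ranked by how closely their 5 group means of log2 CPM, centred over the groups, followed the median profile of the 9 genes (root mean square distance over 5 groups, among 3295 genes with at least 50 CPM on average). The nearest were Arhgef40 (0.17), Cxxc5 (0.172), Epb41l2 (0.197), Ctsf (0.203) and Lpcat2 (0.206), beside a median distance of 1.18 over the genes compared. Arhgef40 averaged 20.6 CPM in monocyte-derived and 13.7 CPM in HSC-derived leptomeningeal macrophages, 85.7 CPM in monocyte-derived microglia, 67.2 CPM in HSC-derived microglia and 142 CPM in host microglia. The nearest single gene was Rtn4rl1 for Tmem119 (distance 0.167), Cd9 for Selplg (0.252), Rnase4 for Fcrls (0.0869), Ecscr for Slc2a5 (0.139), Ankrd10 for Slco2b1 (0.0484), Creld2 for Kcnk13 (0.0366), Cxxc5 for Olfml3 (0.0508), Arhgef40 for Golm1 (0.069) and Tspan7 for Crybb1 (0.0946). Rnase4 shared with Fcrls the higher level in donor-derived microglia, at 1725 CPM in monocyte-derived, 1596 CPM in HSC-derived and 1236 CPM in host microglia. Among the 9 genes themselves, Golm1 lay nearest to their median profile (0.154) and Slc2a5 farthest (1.26).

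The other genes of the homeostatic programme were described from a list of 38, with receptors, enzymes and transcription factors among them. Of these 38 genes, 36 were in the table and tested. In monocyte-derived against host microglia 30 were called lower and 1 higher, beside 15.1% of all tested genes called lower and 15.1% called higher. In HSC-derived against host microglia 30 were called lower and 0 higher, beside 13.1% and 16.3%. The list's median log2 fold changes were -0.98 and -1.02, beside 0.01 and 0.0019 over all tested genes. Sall1, a transcription factor of microglial identity, averaged 31.4 ± 8.59 CPM in monocyte-derived, 19.8 ± 12.9 CPM in HSC-derived and 326 ± 10.7 CPM in host microglia (SD, n = 4 each). Its log2 fold changes were -3.38 ± 0.19 and -3.75 ± 0.24 (SE; edgeR QL adjusted p = 2.24e-16 and 9.86e-15), near those of Slc2a5. Ecscr, the gene nearest to Slc2a5 in profile, averaged 46.4 ± 9.62 CPM in monocyte-derived, 46.8 ± 28.2 CPM in HSC-derived and 433 ± 23.5 CPM in host microglia (SD, n = 4 each). P2ry12, the purinergic receptor of microglial processes, averaged 363 CPM in monocyte-derived and 280 CPM in HSC-derived leptomeningeal macrophages, 1575 CPM in monocyte-derived microglia, 1245 CPM in HSC-derived microglia and 4688 CPM in host microglia. Between monocyte-derived and HSC-derived microglia 1 of the 36 was called, Cst3, lower in monocyte-derived cells (edgeR QL adjusted p = 0.0489). Cst3 averaged 20874.8 ± 1026.06 CPM in monocyte-derived and 34806.1 ± 11000.5 CPM in HSC-derived microglia (SD, n = 4 each). The summed list, Cst3 included, was at 72500 and 58700 CPM in the shallow replicates 3 and 4 of the HSC-derived microglia. It was at 50800 and 49500 CPM in replicates 1 and 2, and at 43900 to 46800 CPM in monocyte-derived microglia. The part of the shallow libraries in the Cst3 call was not tested. A share of 1 of the 36 is near the 1.89% of all tested genes called in either direction. For leptomeningeal macrophages against microglia, 30 were called lower in monocyte-derived cells, beside 16.3% of all tested genes, and 23 in HSC-derived cells, beside 3.97%, with 0 called higher in either. The list's medians were -1.20 and -1.55, beside -0.04 and -0.06 over all tested genes. Between the leptomeningeal groups 1 of the 36 was called, Itgb5, higher in monocyte-derived cells (log2 fold change 0.96 ± 0.21, SE; edgeR QL adjusted p = 0.0257), beside 0.302% of all tested genes called in either direction. A list of 18 genes of marrow-derived brain macrophages went the other way: all 18 were called higher in monocyte-derived against host microglia, beside 15.1% of all tested genes called higher, and all 18 in HSC-derived against host microglia, beside 16.3%. An example is Ms4a7, a membrane protein of such macrophages, at 780 ± 30.5 CPM in monocyte-derived, 885 ± 143 CPM in HSC-derived and 6.05 ± 4.41 CPM in host microglia (SD, n = 4 each). In monocyte-derived against HSC-derived microglia, 6 of these 18 were called lower and 0 higher, beside 1.89% of all tested genes called in either direction. Both lists were chosen with earlier results of these data known, so their counts are descriptions and no independent support.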

How the data were processed

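The deposited values are raw UMI counts by gene symbol. They come from bulk MARS-seq, which counts molecules near the 3′ end of polyadenylated RNA, and actinomycin D was present while cells were prepared, per the labels' protocols. The build was mm10, per the submitters' processing notes; for the aligner, the counter, its use of strand and filters on genes, nothing is stated in the sources used here. Only the unscaled count columns were used. Columns were matched to samples by name, and 2 unscaled columns that matched no described sample entered no step.

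From these counts, all 18 libraries were fitted in 1 model with a coefficient per group and no covariate: edgeR 4.0.16 (R 4.3.3, limma 3.58.1), filterByExpr by group, TMM, glmQLFit with robust dispersion and two-sided glmQLFTest, adjusted by Benjamini-Hochberg over all 10597 tested genes at 0.05. The common biological coefficient of variation was 0.16, and the fit was tested on simulated counts. Intervals are 95% and cover, for count ratios, counting error only. Replicates of a group differed by more than sampling noise (lowest chi-square per degree of freedom 1.43).

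The genes, lists and tests were chosen with earlier results of these data known. All 9 genes are named; other genes are the 5 nearest in profile, the nearest to each of the 9, and up to 4 of a list by smallest p. P2ry12, the marker genes checked against the labels, the overlapping genes and Arhgef40 and Rnase4 levels were added as context. The alternatives were RLE scaling, total counts, no low count filter, only the groups compared, no shallow libraries, a replicate block, DESeq2 1.42.0 and leaving out each library. Positions are those of GENCODE vM21 and promoters those of RefSeq.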

Additional observations from a re-analysis of the deposited data

Results flagged for a closer look

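Of 36 sets of 4 libraries (9 genes in 4 groups) searched for a library far from the other 3, 1 stood out, where chance flags about 1 in 20. Kcnk13 was at 71.7 CPM in replicate 3 of the HSC-derived microglia, against 34.0 to 35.2 CPM in the other 3 libraries of the group. The gap to the nearest library was 0.968 of the whole range, above Dixon's 95% critical value for 4 values. The library had 264795 counts in all, and 3 counts in it corresponded to 15.4 CPM. No test of the difference between origins in the step between leptomeningeal macrophages and microglia passed the threshold for the 9 genes.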

How the results depend on the processing

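Over 25 alternatives, 18 of which left out 1 library, 2466 values of single genes were recomputed in 11 comparisons. Of these, 2408 kept their direction and side of the threshold, 26 lost a call, 13 gained one and 19 changed sign, none of the last called before or after. The number of the 9 genes called moved in the fit of only the groups compared, to 2 in HSC-derived leptomeningeal macrophages against HSC-derived microglia (8 of the 9 at an unadjusted p under 0.05) and to 0 in monocyte-derived against HSC-derived leptomeningeal macrophages. The same fit called 8 (7 lower, Fcrls higher) in place of 6 in monocyte-derived against host microglia and 6 in place of 7 in HSC-derived against host microglia. Leaving out 1 library gave 6 to 8 in HSC-derived against host microglia. The sign changed for Fcrls in HSC-derived against host microglia with total counts (-0.026). In monocyte-derived against HSC-derived microglia it changed for Fcrls with RLE scaling (-0.016), with only the groups compared (-0.028) and with DESeq2 (-0.012), for Slc2a5 and Crybb1 with total counts (0.15 and 0.10) and for Selplg without the shallow libraries (-0.13). For Kcnk13 in monocyte-derived leptomeningeal macrophages against HSC-derived microglia it changed without the shallow libraries (0.16). The causes were not tested. With 1 library left out, values ran -0.30 to 0.14 (Slc2a5) and -0.0079 to 0.045 (Fcrls) in monocyte-derived against HSC-derived microglia; -0.062 to 6.94 (Slc2a5), -0.27 to 0.28 (Fcrls) and -0.66 to 1.24 (Crybb1) in monocyte-derived against HSC-derived leptomeningeal macrophages; -0.14 to 0.16 (Kcnk13) in monocyte-derived leptomeningeal macrophages against HSC-derived microglia; and -0.30 to 0.25 (Fcrls), -0.14 to 0.91 (Olfml3) and -0.49 to 1.4 (Crybb1) in the interaction of origin and compartment.

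Total-count scaling moved the median log2 fold change of all genes to -0.28 in HSC-derived against host microglia, -0.34 in monocyte-derived leptomeningeal macrophages against monocyte-derived microglia and -0.44 in HSC-derived leptomeningeal macrophages against host microglia. The shift is shared by all genes, and calls gained by Kcnk13 under it were in that direction. The labels do not say whether equal replicate numbers mark the same mouse, and correlations between libraries cannot settle it. Over 32 pairs with the same number, deviations from the group means correlated between -0.32 and 0.32, with a median of -0.00027 and 1 pair over 0.1. Both extremes involve the 2 HSC-derived leptomeningeal libraries, whose deviations from their shared mean are mirror images of each other. With the replicate block, the number of the 9 genes called stayed at 6 in monocyte-derived and 7 in HSC-derived against host microglia, 0 between these microglia, 8 in either compartment comparison and 1 between the leptomeningeal groups. Depth limits the HSC-derived leptomeningeal values most, where 3 counts in replicate 2 were 23.1 CPM.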
